A study of Mus musculus with 4 samples.

Results

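The otic vesicle epithelium, the cell layer that builds the inner ear, was followed here in mouse embryos at E9.5 through 494 cells, out of 35228 cells that passed filters on detected genes and mitochondrial RNA and 76367 deposited barcodes. A cell was taken as otic in 3 steps. It held at least 3000 detected genes, at most 10% mitochondrial unique molecular identifiers (UMIs, each of which stands for 1 captured transcript), at least 2 *Epcam* UMIs, at least 3 of the 4 epithelial genes *Epcam*, *Cldn6*, *Cldn7* and *Cdh1*, and no UMI of the endothelial cadherin *Cdh5*. Detected genes were then counted in an otic set (*Oc90*, *Fbxo2*, *Lmx1a*, *Sox10* and *Col9a2*), an ectoderm set (*Foxi2*, *Trp63*, *Tfap2a*, *Sostdc1* and *Wnt6*) and an endoderm set (*Pax9*, *Pax1*, *Foxa1*, *Foxa2* and *Shh*). Members had at least 2 genes of the otic set and more of it than of either other set, so the cells were chosen by the measured UMIs of these genes. The matrix of the cHet library of Rep1 held 37093 of the barcodes, of which the filters on genes and mitochondrial RNA kept 6238, while the other libraries held 9307 to 16775. The cell number that the study lists for that library is lower than either count, whereas for the other libraries it equals the number of barcodes.

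The cells came from the microdissected pharyngeal region and heart, from which GFP-positive, viable cells had been sorted before 3′ droplet RNA sequencing. The labels give the background as outbred SwissWebster, while the study's methods describe a mixed background of Swiss Webster and C57BL/6. All embryos carried *Tbx1*Cre/+ and 1 GFP F/+ reporter allele. cHet embryos were *Kmt2d* F/+, so that 1 allele of *Kmt2d* could be recombined in the *Tbx1* lineage, and cKO embryos were *Kmt2d* F/F, in which both alleles could be. Cre was expressed from the *Tbx1* locus, and both genotypes were heterozygous for *Tbx1*, so no library came from embryos with both copies. Rep1 pooled 4 embryos per library and Rep2 pooled 3. In both replicates the somite range (a measure of stage) that the study lists began lower in cHet than in cKO. In Rep2 the cHet range also ended lower, so somite stage and genotype cannot be fully told apart there. The part of stage in the genotype values below was not tested. Each replicate had its own 10x Genomics kit (Next GEM in Rep1, GEM-X in Rep2), so kit and replicate cannot be told apart. Single embryos were not told apart within a pool, and n = 2 libraries per genotype throughout.

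The otic vesicle is a closed epithelial sac that forms from the otic placode, a thickening of the head ectoderm beside the hindbrain. Its walls are patterned early. *Dlx5*, *Dlx6*, *Hmx2*, *Hmx3* and *Gbx2* act in the dorsal part from which the vestibular apparatus arises, while *Sox2*, *Lfng* and *Jag1* mark neurosensory epithelium, from which neuroblasts that express *Neurog1* and then *Neurod1* leave to form the cochleovestibular ganglion. *Tbx1* is expressed in the vesicle and is needed for its growth and patterning. *Kmt2d* encodes a histone H3 lysine methyltransferase of enhancers, and inner ear malformation and hearing loss are known in Kabuki syndrome, in which the human gene is mutated.

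Sequences before the RefSeq start of 3 genes are shown because the results turn on them: *Lmx1a*, a LIM homeodomain factor that helped choose the cells, *Crabp1*, which binds retinoic acid in the cytoplasm and was called between genotypes from UMIs in most otic cells, and *Neurod1*, which marked the neurogenic cells. Each is the 250 bases before the RefSeq transcript start in GRCm38.p6, written 5′ to 3′ on the gene's strand, with capitals for GGGCGG (a GC box), CANNTG (an E-box, bound by factors of the NEUROD family) and ACAAAG (a SOX motif) on either strand, and no matches overlapped. Of 12 genes searched, 8 had an entry. GENCODE starts differ from RefSeq for *Lmx1a*, whose gene begins at position 167689237 there, so the stretch shown lies inside the GENCODE gene, and for *Neurod1*, whose gene ends at 79456751, so the stretch shown overlaps it.
Lmx1a, chr1:167689308-167689557 (+): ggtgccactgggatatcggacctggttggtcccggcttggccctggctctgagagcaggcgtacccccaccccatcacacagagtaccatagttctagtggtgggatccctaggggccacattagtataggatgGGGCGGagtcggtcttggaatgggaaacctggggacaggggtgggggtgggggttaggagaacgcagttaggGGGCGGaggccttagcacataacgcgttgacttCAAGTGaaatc
Crabp1, chr9:54764498-54764747 (+): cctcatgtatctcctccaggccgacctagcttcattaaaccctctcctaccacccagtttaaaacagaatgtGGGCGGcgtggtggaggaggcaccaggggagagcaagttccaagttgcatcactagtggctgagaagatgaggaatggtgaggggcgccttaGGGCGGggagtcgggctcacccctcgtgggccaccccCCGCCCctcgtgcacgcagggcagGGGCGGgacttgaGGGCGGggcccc
Neurod1, chr2:79456637-79456886 (-): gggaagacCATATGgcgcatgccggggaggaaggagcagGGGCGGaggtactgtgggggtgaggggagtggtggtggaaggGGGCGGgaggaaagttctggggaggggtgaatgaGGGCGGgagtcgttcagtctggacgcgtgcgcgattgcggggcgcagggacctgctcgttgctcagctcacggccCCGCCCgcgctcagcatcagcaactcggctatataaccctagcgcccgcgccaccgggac
GC boxes numbered 2 in *Lmx1a*, 5 in *Crabp1* and 4 in *Neurod1*, and 32.9% of 27025 mouse promoters of this length held at least 1. *Lmx1a* and *Neurod1* held 1 E-box each and *Crabp1* held none, against 66.0% of all promoters with at least 1. None of the 3 held ACAAAG, which 16.5% of promoters did. A match is a match of letters and shows no binding.

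The otic cells numbered 70 in cHet Rep1, 83 in cKO Rep1, 122 in cHet Rep2 and 219 in cKO Rep2. They made up 1.12% of the cells kept in cHet Rep1 (95% Wilson interval 0.889 to 1.42), 1.25% in cKO Rep1 (1.01 to 1.54), 1.25% in cHet Rep2 (1.05 to 1.49) and 1.74% in cKO Rep2 (1.53 to 1.98). The cKO share lay above the cHet share in both replicates, and the intervals overlapped in Rep1 but not in Rep2. In Rep2 they overlapped as well without doublets (cHet up to 1.439%, cKO from 1.435%) and with at least 3 otic genes required (cHet up to 0.918%, cKO from 0.863%). Measured against epithelial cells only, the order differed between replicates. The otic share of epithelial cells was 15.6% (12.5 to 19.2) in cHet and 30.3% (25.2 to 36.0) in cKO of Rep1. In Rep2 it was 21.1% (17.9 to 24.6) in cHet and 19.9% (17.7 to 22.4) in cKO. The totals differed too, with 449 epithelial cells in cHet and 274 in cKO of Rep1, of which 253 and 107 were ectoderm. In Rep2 they were 579 and 1100, of which 238 and 493 were ectoderm. Intervals cover counting error only, and with 2 libraries per genotype an exact two-sided permutation test cannot go below p = 0.333, so no test was run on shares. Dissection and sorting bear on these shares and their part was not tested.

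**Figure D1:**
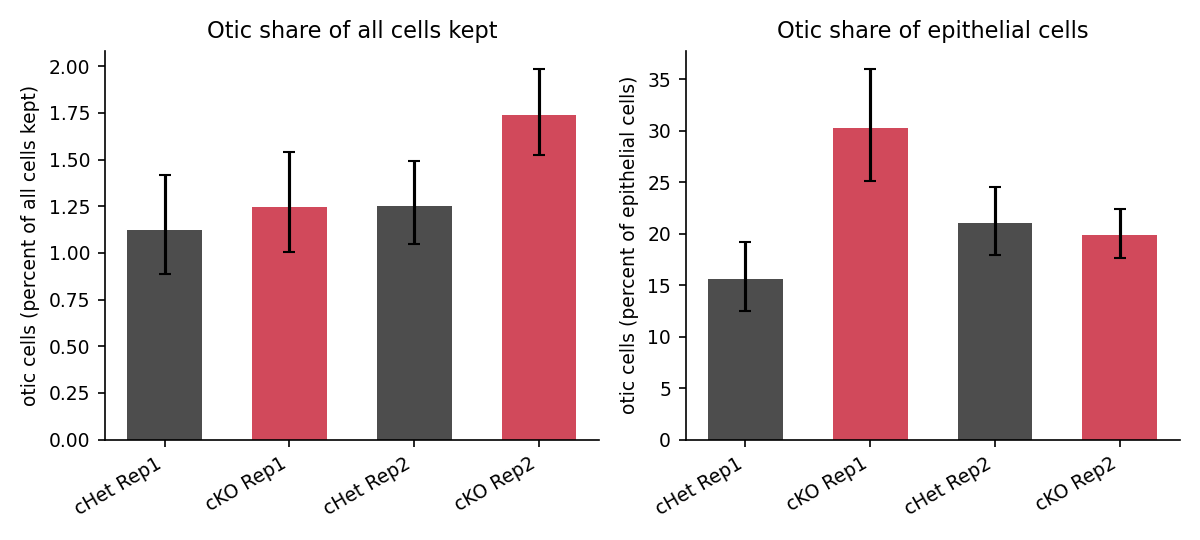
Otic cells as a percent of all cells kept (left) and of epithelial cells (right) in the 4 libraries, with 95% Wilson intervals as error bars (counting error only), cHet in grey and cKO in red. In the right panel cKO lies above cHet in Rep1, at 30.3% against 15.6%, and beside it in Rep2, at 19.9% against 21.1%.

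The median UMIs per otic cell were 24035 in cHet and 27827 in cKO of Rep1, and 24457 in cHet and 19432 in cKO of Rep2, an order kept for all lists of 4 values. The UMIs summed over otic cells came to 2204767, 2701019, 3248250 and 4710075. No barcode was shared by otic cells of different libraries, although 12 filtered barcodes were shared between the libraries of Rep1 and 46 between those of Rep2. Of the members, 182 held exactly 2 genes of the otic set, 183 held 3, 102 held 4 and 27 held all 5. In addition, 154 members held at least 1 gene of the ectoderm set and 23 at least 1 of the endoderm set. By Scrublet score, 57 members were among the doublets expected for the kits, and they were kept in the fits below unless stated. They made up 12.9%, 19.3%, 8.20% and 10.0% of the otic cells, a higher share in each library than the 5.45%, 5.63%, 4.03% and 5.06% of all its filtered cells. The first principal component of the 4 summed profiles took 74.2% of the variance and separated the replicates, not the genotypes.

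The genes of the rule were first read as levels, in CPM (a gene's UMIs scaled to the same total of UMIs over the otic cells of every library). Since they chose the cells, these values are a description. *Lmx1a* stood at 216, 161, 254 and 317 CPM, and at no more than 3.93 CPM in ectoderm and 0.741 CPM in endoderm. *Sox10*, a transcription factor of the otic epithelium and neural crest, stood at 71.2, 81.5, 65.0 and 65.4 CPM. *Oc90*, which encodes the main protein of mammalian otoconia, stood at 57.6, 33.0, 66.8 and 75.4 CPM and had UMIs in only 30.1% to 37.9% of otic cells. No endothelial cell in any library had a UMI of *Oc90* or *Sox10*. *Fbxo2*, a subunit of a ubiquitin ligase that recognizes glycoproteins, stood at 24.0 to 28.7 CPM, and *Col9a2*, a chain of collagen IX, at 24.0 to 34.2 CPM. *Col9a2* was the least particular of the 5, with up to 25.2 CPM in endoderm.

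*Tbx2*, a T-box repressor that marks the label but was not part of the rule, was at 62.1, 71.1, 130 and 129 CPM in otic cells and at 0 to 3.30 CPM in ectoderm and endoderm. It was detected in 77.1% to 90.2% of otic cells against 1.25% to 2.01% of endothelial cells. Libraries of Rep2 were higher than those of Rep1, and the genotypes of a replicate lay close together. *Tbx2* is the label marker that the rule left free, and the other label markers were part of the rule.

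The 15 genes outside the rule with the highest ratio of otic to other epithelial CPM, after adding 5 CPM, were *Spp1*, *BC006965*, *Kcnq3*, *Slitrk6*, *Tbx2*, *Sorcs1*, *Hmx2*, *Dlx5*, *Trpm3*, *Pax2*, *Grik2*, *Hmx3*, *Sox9*, *Itga4* and *Dclk1*, with ratios from 15.5 down to 5.72. Among them are 6 transcription factors of otic patterning and identity. *Pax2*, a paired-box factor of the otic placode, averaged 61.0 CPM in otic cells and 4.82 CPM in other epithelial cells. *Dlx5*, a distal-less factor of the dorsal vesicle, averaged 125 CPM against 11.5 CPM. *Hmx2* and *Hmx3*, NKX-type homeobox genes of the vestibular part, averaged 74.1 against 4.39 CPM and 40.6 against 2.61 CPM. *Sox9*, which acts in placode invagination, averaged 247 CPM against 37.6 CPM.

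The remaining genes of that group include surface and secreted proteins. *Spp1*, which encodes osteopontin, averaged 248 CPM in otic cells and 11.3 CPM in other epithelial cells, yet was found in as few as 45.7% of otic cells of a library. *Slitrk6*, a transmembrane protein needed for innervation of the inner ear, averaged 94.6 against 4.52 CPM. *Trpm3*, an ion channel gene, averaged 1136 against 162 CPM and was detected in at least 95.7% of the otic cells of each library. These genes share with the rule that they were read in the same cells, so no test was made of their difference.

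**Figure D2:**
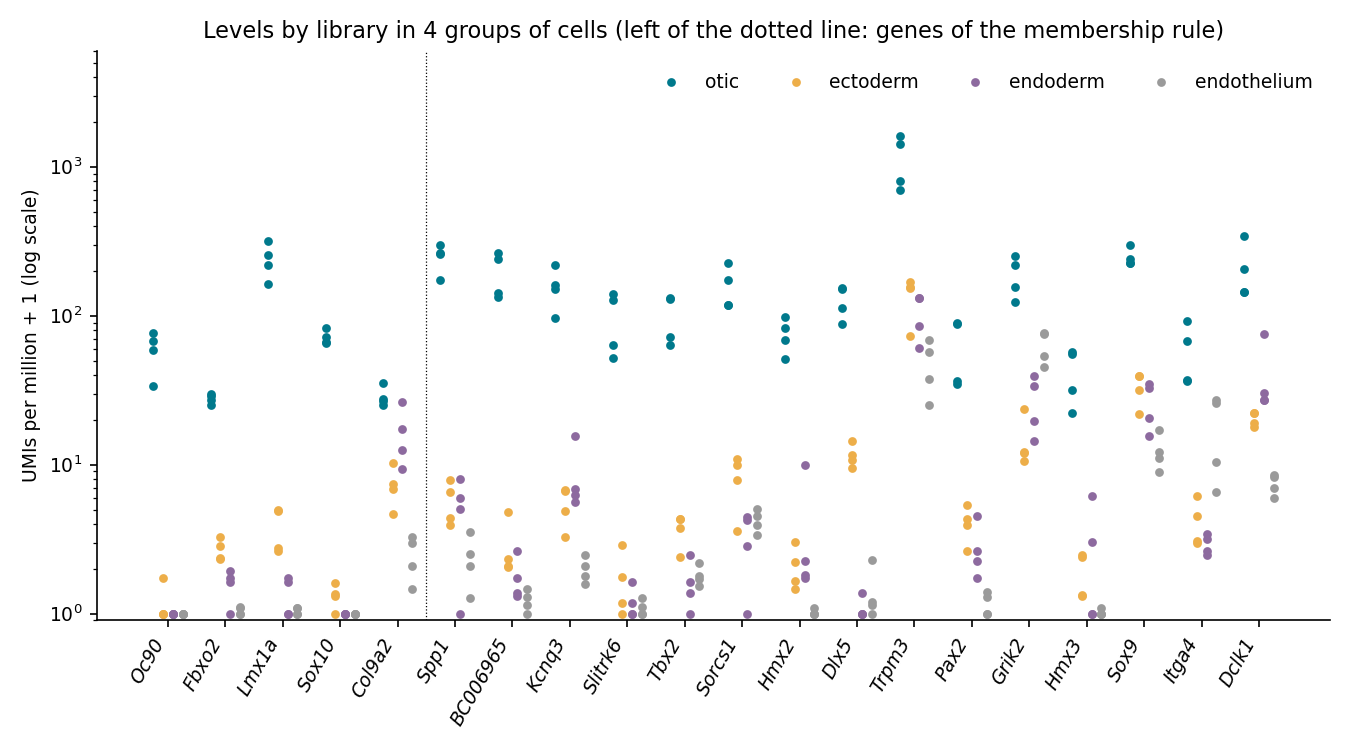
CPM plus 1 (log axis) of the 5 otic genes of the rule (left of the dotted line) and of the 15 genes outside it with the highest ratio to other epithelial cells, with 1 point per library in otic, ectoderm, endoderm and endothelial cells. All 4 otic points lie above those of every other group for each of these genes except *Col9a2*, whose highest endoderm library (25.2 CPM) passes the lowest otic one (24.0 CPM).

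Values at the threshold of the rule were read within each library, without a test. Members with exactly 2 otic genes held 53.9, 66.9, 128 and 124 CPM of *Tbx2*, and members with 3 or more held 64.7, 72.4, 132 and 132 CPM, slightly more in each library. The order was mixed for *Slitrk6* and *Dlx5*. Members with exactly 2 held 57.8, 70.1, 118 and 143 CPM of *Slitrk6* and 53.9, 167, 163 and 127 CPM of *Dlx5*. Members with 3 or more held 49.2, 60.8, 131 and 135 CPM of *Slitrk6* and 96.7, 94.5, 140 and 170 CPM of *Dlx5*. Epithelial cells with a single otic gene that no set claimed numbered 122. They held 11.4, 34.5, 52.6 and 97.0 CPM of *Tbx2*, less than the members of the same library each time, and *Slitrk6* at 6.53, 36.8, 40.2 and 141 CPM, the last within the members' 143 and 135 CPM in that library. Epithelial cells with at least 2 otic genes that failed on another set numbered 39, or 13, 3, 8 and 15 per library. They held 0 to 20.6 CPM of *Tbx2* and 6.14, 0, 0 and 55.8 CPM of *Slitrk6*. Their *Dlx5* stood at 24.6, 170, 13.9 and 73.4 CPM, so the 3 cells of cKO Rep1 were not below the members there.

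Genes of the inner ear's extracellular matrix and of its mature functions were read next. *Col2a1*, the main fibrillar collagen of cartilage and of the tectorial membrane, had 175, 193, 185 and 202 CPM and was found in at least 96.8% of the otic cells of each library. *Otog*, which encodes otogelin of the acellular membranes, stood at 8.16, 6.66, 13.9 and 8.92 CPM and at no more than 0.531 CPM in ectoderm and at 0 in endoderm. *Otop1*, *Tectb* and *Slc4a11* had 0 UMIs in the 494 cells, which allows a share of up to 0.607% of cells with a UMI. These 3 act in otoconia, the tectorial membrane and ion transport of the mature ear.

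Cells with a UMI of *Neurog1* or *Neurod1*, the bHLH factors of the neuroblast lineage, were a small share of the otic cells. They numbered 3 of 70 cells in cHet Rep1 (4.29%, 95% Wilson interval 1.47 to 11.9) and 7 of 83 in cKO Rep1 (8.43%, 4.15 to 16.4). In Rep2 they numbered 14 of 122 in cHet (11.5%, 6.96 to 18.3) and 28 of 219 in cKO (12.8%, 8.996 to 17.9). The cKO share was above the cHet share in both replicates, and the intervals overlapped in both. Endothelial cells with such a UMI made up 0.502% to 1.15% of a library. With every cell thinned to 5000 UMIs the shares were 1.43%, 6.02%, 4.92% and 7.31%.

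In the same thinned cells, the neurogenic cells of Rep2 (6 in cHet, 16 in cKO) were set beside the rest for 6 genes of the neuroblast list, chosen after values were seen. *Eya2*, *Elavl4*, *Tubb3* and *Gadd45g* were higher in both libraries, whereas *Isl1* and *Dll1* were at 0 in neurogenic cells of cHet Rep2 (31.0 and 5.17 CPM in the rest) and higher in those of cKO Rep2. *Eya2*, a transcriptional coactivator, was at 66.7 and 325 CPM in neurogenic cells of cHet Rep2 and cKO Rep2 and at 12.1 and 6.90 CPM in the other otic cells. *Elavl4*, an RNA-binding protein of neurons, was at 167 and 238 CPM against 27.6 and 10.8 CPM. *Dlx5* was lower in these cells, at 66.7 and 75.0 CPM against 166 and 166 CPM. In cHet Rep2 the values of *Eya2*, *Gadd45g* and *Dlx5* rest on very few UMIs in 6 cells, so their direction there is weakly determined. For the same reason, the values of 0 for *Isl1* and *Dll1* there do not show that these genes were lower. Only 1 cell of cHet Rep1 and 5 of cKO Rep1 were neurogenic after thinning, so those libraries were not read.

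The otic cells were also divided by detection of *Sox2*. In thinned cells, those with a UMI of *Sox2*, an HMG-box factor of the neurosensory epithelium, numbered 34, 43, 80 and 146, against 36, 40, 42 and 73 without. *Tbx2* was higher in cells with *Sox2* in all 4 libraries, at 88.2, 107, 182.5 and 148 CPM against 33.3, 50.0, 109.5 and 115 CPM. *Lfng*, a glycosyltransferase that modifies Notch, was likewise higher in all 4, at 29.4, 18.6, 42.5 and 34.2 CPM against 16.7, 5.00, 14.3 and 8.22 CPM. The lowest of these values rest on a few UMIs. Of the 4 other neurosensory genes read in this way, *Jag1* was higher in 3 libraries (65.1 against 65.0 CPM in cKO Rep1), *Fgf10* in 2, *Tbx3* in 2 and *Prox1* in 1.

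Genes of the dorsal list were not all on one side. Of its 8 members read in this way, *Dlx5*, *Dlx6*, *Gbx2* and *Msx1* were lower in cells with *Sox2* in all 4 libraries. *Dlx5* was at 64.7, 112, 132 and 144 CPM against 156, 170, 214 and 189 CPM. *Dlx6*, its neighbour and paralog, was at 11.8, 18.6, 25.0 and 42.5 CPM against 33.3, 70.0, 61.9 and 57.5 CPM. *Gbx2*, a homeobox factor of the dorsal vesicle, was at 11.8, 0, 7.50 and 12.3 CPM against 27.8, 5.00, 57.1 and 43.8 CPM. *Msx1* was at 0, 0, 10.0 and 17.8 CPM against 16.7, 25.0, 33.3 and 27.4 CPM. The lowest values of *Gbx2* and *Msx1* rest on a few UMIs or none, so their direction in Rep1 is weakly determined. The other 4 dorsal genes differed from these: *Gata3* was higher in cells with *Sox2* in 4 libraries, *Bmp4* in 3, *Hmx2* in 2 and *Hmx3* in 1. These are splits of cells of the same libraries, described without a test, and *Sox2* took no part in the rule.

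**Figure D3:**
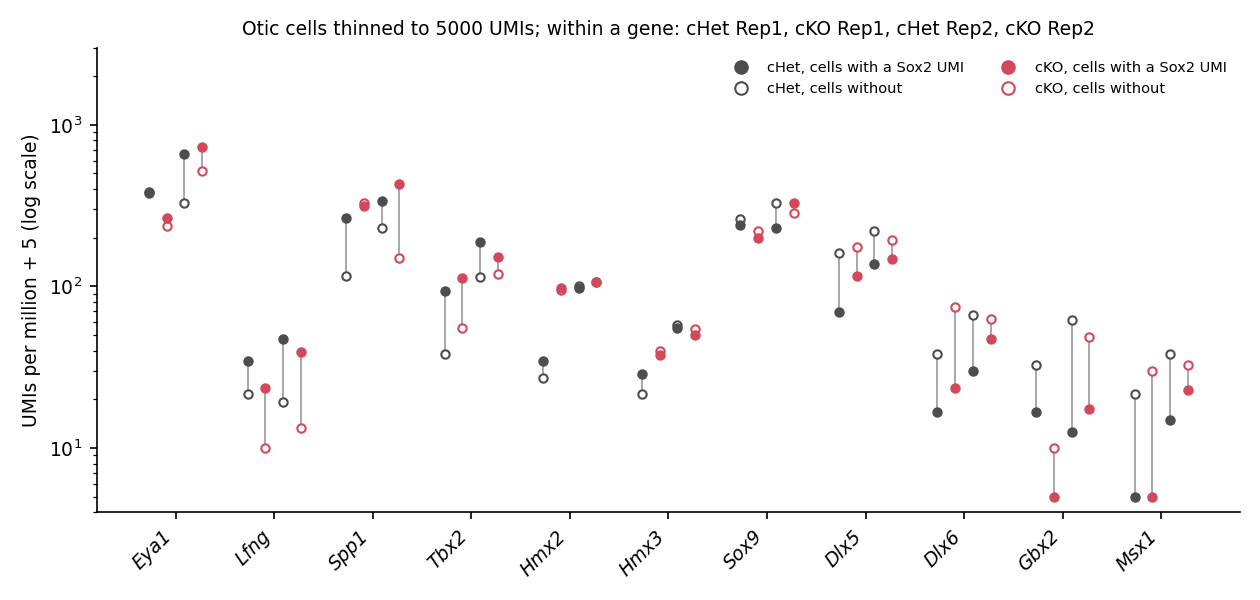
CPM plus 5 (log axis) of 11 genes in otic cells thinned to 5000 UMIs, in cells with a *Sox2* UMI (filled) and without (open), with cHet in grey, cKO in red and 4 libraries per gene from left to right as named in the title. *Lfng* and *Tbx2* have the filled point above the open one in all 4 libraries, and *Dlx5*, *Dlx6* and *Gbx2* have it below in all 4, while *Hmx2* and *Hmx3* are mixed.

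Between genotypes, few genes were called in the otic cells. Summed UMIs per library were compared by edgeR's quasi-likelihood test, blocked by replicate. A gene was called at a Benjamini-Hochberg adjusted p under 0.05 over 11351 genes tested. Of these, 5 were called (0.044%), 3 lower in cKO (0.0264%) and 2 higher (0.0176%). An unadjusted p under 0.05 was reached by 428 genes (3.77%), 228 lower (2.01%) and 200 higher (1.76%). *Crabp1*, *Fam155a* and *Gm5127* fell, and *Myl4* and *Nlgn1* rose. In bulk sums of this kind, fewer cells that express a gene and less RNA per cell cannot be told apart. Leaving the replicate block out, or using DESeq2, ended all 5 calls. Fits that left out 1 library (cHet Rep1, cHet Rep2, cKO Rep1 or cKO Rep2) had no block either. They compared libraries across kits, so they do not show whether the calls rest on 1 library. With RLE size factors in place of TMM, 22 genes were lower and 23 higher, and with no filter on low counts 26 and 28, so the number of calls rests on the fit.

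*Crabp1* (ENSMUSG00000032291, GRCm38 chr9:54764748-54773110, + strand, protein coding) encodes a cytoplasmic protein that binds retinoic acid and channels it toward breakdown. It had 745 UMIs in cHet Rep1, 656 in cKO Rep1, 1015 in cHet Rep2 and 874 in cKO Rep2, or 338, 243, 312 and 186 CPM. Both cKO libraries lay below both cHet libraries, as was true of 6.12% of the genes tested. The log2 fold change of cKO against cHet was -0.61 (SE 0.10, adjusted p = 0.0244 by edgeR), with -0.46 in Rep1 and -0.75 in Rep2.

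*Crabp1* was found in most otic cells. It was detected in 65 of 70 cells of cHet Rep1 (92.9%) and 72 of 83 of cKO Rep1 (86.7%), and in 115 of 122 of cHet Rep2 (94.3%) and 181 of 219 of cKO Rep2 (82.6%). After thinning to 5000 UMIs per cell these shares were 54.3%, 47.0%, 58.2% and 48.9%, again lower in cKO in both replicates. In endothelial cells, read as background, the shares were 16.1% to 27.7%, or 13.3%, 9.58%, 6.79% and 5.35% when thinned. These background shares were also lower in cKO in both replicates, with all UMIs and when thinned. Median depths of the endothelial cells were 22580, 29220, 21018 and 16550 UMIs per cell, so in Rep1 the cKO cells were the deeper ones. Whether the lower shares in otic and endothelial cells are related was not tested. A typical otic cell held a median of 6 and 4 *Crabp1* UMIs in Rep1 (cHet and cKO) and of 4 and 2 in Rep2. Without the cell that held the most *Crabp1* UMIs in each library, the levels were 286, 210, 297 and 180 CPM, with both cKO libraries still below both cHet libraries.

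*Crabp1* was then read in the other epithelia of these embryos, whose cells were chosen by the same rule. In the ectoderm it stood at 624, 729, 876 and 833 CPM, so the replicates moved in opposite directions and the log2 fold change was 0.10 (adjusted p = 1.00 by edgeR). The difference between the genotype effects, otic minus ectoderm, was -0.71 (SE 0.07, adjusted p = 2.0e-09 by edgeR). In the endoderm *Crabp1* stood at 277, 155, 414 and 302 CPM, lower in cKO both times, with a log2 fold change of -0.62 (adjusted p = 0.00218 by edgeR). The difference between otic and endoderm was 0.03 (SE 0.20, adjusted p = 1.00 by edgeR), which does not show that the effects were equal. Under 4 other settings the otic minus ectoderm difference passed the threshold in 2. Under the 4 fits that left out a library, which compared libraries across kits, it ran from -0.99 to -0.43.

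Across 10 other ways of choosing cells or fitting, the log2 fold change of *Crabp1* in otic cells lay between -0.72 and -0.48 and passed the threshold in 5. Leaving out 1 library moved it further, to -0.25 without cKO Rep2, -0.32 without cHet Rep1, -0.79 without cHet Rep2 and -0.99 without cKO Rep1. Those fits had no block and compared libraries across kits. The summed CPM of 8 mesenchyme markers was 277, 204, 72.7 and 98.3, lower in cKO of Rep1 and higher in cKO of Rep2, and that of 6 neural crest markers was 106, 77.4, 120 and 108. Cells that held 2 or more markers of mesenchyme, muscle, heart, blood, neural crest or yolk sac were a large part of the members. They numbered 38 of 70, 40 of 83, 77 of 122 and 88 of 219. Neural crest markers, with *Sox10* left out, marked 33, 37, 69 and 77 cells. Without all cells so marked, *Crabp1* missed the threshold (log2 fold change -0.48, adjusted p = 0.0596 by edgeR). With the crest markers not used, a choice made after the data were seen, it passed (-0.72, adjusted p = 1.35e-09 by edgeR). Without cells that held 2 or more neuron markers, also chosen after the data were seen, it missed the threshold (-0.55, adjusted p = 0.345 by edgeR), as it did in thinned cells (-0.50, adjusted p = 0.744 by edgeR).

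**Figure D4:**
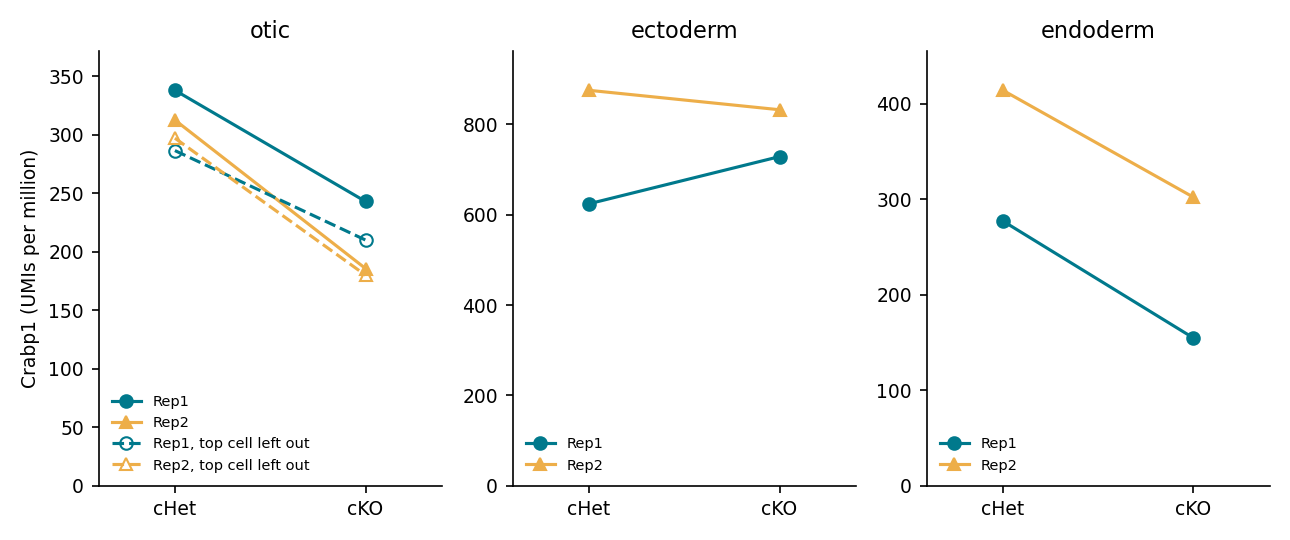
*Crabp1* in CPM (linear axes from 0, a different range in each panel) in cHet and cKO in otic, ectoderm and endoderm cells, with Rep1 as circles and Rep2 as triangles, and in the otic panel dashed lines for levels without the cell that held the most *Crabp1* UMIs. Both replicates go down in otic cells (338 to 243 and 312 to 186) and in endoderm, and they go opposite ways in ectoderm.

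*Crabp1* was the sole called gene among 15 tested genes of the retinoic acid list, against 5 of 11351 (0.044%) over all genes tested. *Crabp2*, its paralog, which carries retinoic acid to nuclear receptors, stood at 470, 463, 686 and 693 CPM with a log2 fold change of 0.01 (SE 0.09). *Cyp26a1*, an enzyme that breaks down retinoic acid, stood at 16.8, 20.4, 51.4 and 47.1 CPM with a log2 fold change of 0.01 (SE 0.19), and *Rdh10*, which oxidizes retinol, had one of 0.29 (SE 0.23). The list leaned below 0, with 10 of 15 genes below and a median of -0.13 against -0.00217 over all genes tested. In both replicates 6 were lower and 0 higher, against 23.8% and 23.3% of all genes tested. *Crabp1* itself is counted among the 10 and among the 6. *Aldh1a1*, which makes retinoic acid from retinal, was farthest below, at 4.08, 1.85, 9.54 and 3.40 CPM (-1.37, SE 0.45, adjusted p = 0.882 by edgeR), and *Rdh10* farthest above.

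*Nlgn1* (chr3:25426215-26332460, - strand), which encodes neuroligin 1 of synapses, was at 7.71, 16.3, 13.2 and 41.0 CPM from 17, 44, 43 and 193 UMIs. Both cKO libraries lay above both cHet libraries, as was true of 5.06% of the genes tested. It rose by 1.46 on the log2 scale (SE 0.24, adjusted p = 0.0244 by edgeR) and passed the threshold in 6 of 10 other settings. It missed it without cells that held 2 or more neuron markers (1.35, adjusted p = 0.345 by edgeR). Leaving out 1 library, in fits across kits, gave 0.83 (without cKO Rep2) to 1.81 (without cKO Rep1). UMIs came from 8 of 70, 15 of 83, 17 of 122 and 55 of 219 otic cells, with no more than 29.4% of a library's UMIs in a single cell.

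The other called genes rested on a few cells. *Myl4* (chr11:104550663-104595753, + strand), an atrial and embryonic myosin light chain of heart muscle, had 5, 86, 6 and 31 UMIs, and 81 of the 86 in cKO Rep1 and 23 of the 31 in cKO Rep2 came from 1 cell each. Without the top cell of each library it stood at 1.91, 1.89, 1.55 and 1.71 CPM, and the groups overlapped. Its log2 fold change of 2.97 (SE 0.44) ran from 1.51 to 4.14 when 1 library was left out, in fits across kits. The cell of cKO Rep1 held all 78 *Tnnt2* UMIs, 97 of the 99 *Ttn* UMIs and 116 of the 133 *Myl7* UMIs of that library's otic cells, beside 11 *Epcam* and 5 *Sox10* UMIs, and it was among the doublets by Scrublet score. The summed CPM of 6 heart markers was 13.2, 96.6, 6.47 and 6.58.

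*Fam155a* (chr8:9205902-9771161, - strand), which encodes a subunit of a sodium leak channel complex, had 8, 4, 84 and 0 UMIs. Of the 84 in cHet Rep2, 82 came from 1 cell, a doublet by score. *Gm5127* (chrX:106583186-106710557, + strand), a predicted protein-coding gene, had 75, 20, 12 and 1 UMIs in 9, 7, 5 and 1 cells. A doublet by score held 37 of its 75 UMIs in cHet Rep1. Its log2 fold change was -2.42 (SE 0.40), with -2.11 in Rep1 and -2.30 in Rep2. Without cHet Rep1 the fit, which then had no block and compared libraries across kits, gave 0.23. *Fam155a* had 3, 1, 3 and 0 cells with a UMI, so its log2 fold change of -4.75 (SE 0.76) describes single cells. That change ran from -8.69 to -3.04 in the 3 left-out fits that tested it, which also compared libraries across kits.

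**Figure D5:**
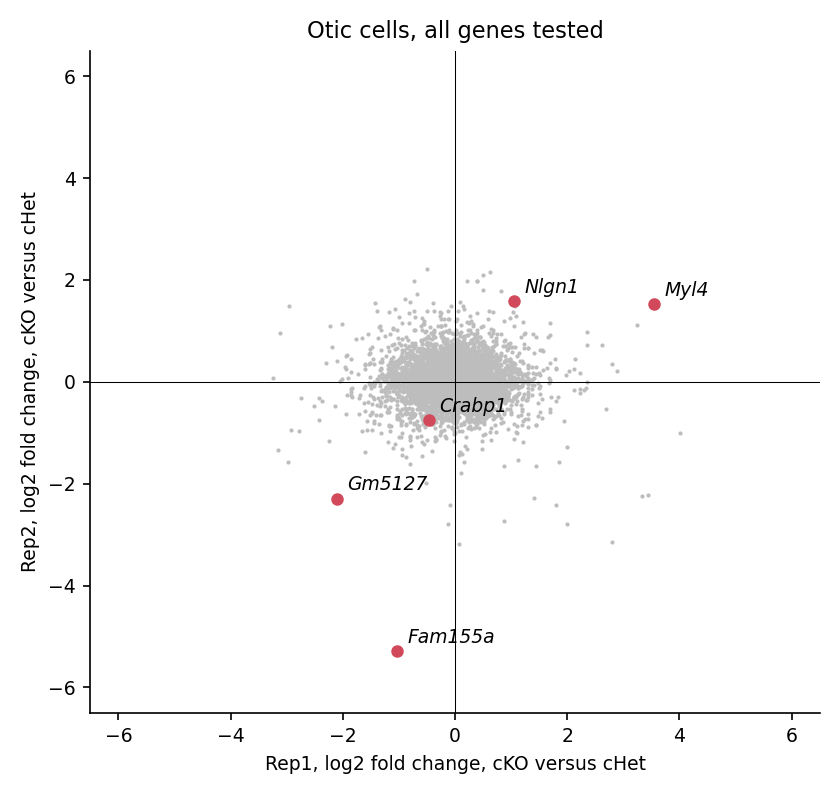
Log2 fold change of cKO against cHet in Rep1 (x axis) and Rep2 (y axis) in otic cells for the 11351 genes tested (grey), with the 5 called genes in red and named. All 5 have the same sign in both replicates, and *Crabp1*, at -0.46 and -0.75, lies closest to the main cloud.

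*Tbx2*, the label marker outside the rule, was not called between genotypes (log2 fold change 0.07, SE 0.13, adjusted p = 0.999 by edgeR), which does not show that it was equal. Levels of the 5 otic genes of the rule were bound by the choice of cells in both genotypes, so their genotype values are given with no test. The log2 fold change was -0.01 for *Lmx1a*, 0.10 for *Sox10*, -0.21 for *Oc90*, 0.17 for *Fbxo2* and -0.16 for *Col9a2*. *Oc90* and *Lmx1a* were lower in cKO of Rep1 and higher in cKO of Rep2.

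*Kmt2d* itself stood at 18.6, 13.0, 20.9 and 22.5 CPM from 41, 35, 68 and 106 UMIs, lower in cKO of Rep1 and higher in cKO of Rep2 (log2 fold change -0.13, SE 0.24). UMIs counted at the 3′ end need not cover the floxed exons, so these values do not check the labels. *Tbx1* stood at 111, 107, 81.3 and 89.2 CPM in otic cells (log2 fold change 0.06, SE 0.12), above its 25.0 to 34.0 CPM in ectoderm. In endoderm it stood at 90.5, 76.2, 57.3 and 72.7 CPM, so that the ranges overlapped between libraries while the otic level was the higher one within each of the 4. It was detected in 73.8% to 88.0% of otic cells against 33.1% to 52.4% of endothelial cells. Of the 9 tested genes of the *Kmt2d* complex list none was called, against 0.044% of all genes tested. *Kdm6a*, the demethylase of that complex, had a log2 fold change of 0.08 (SE 0.12), and *Kmt2c*, the paralog of *Kmt2d*, one of -0.28 (SE 0.13).

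Lists of patterning genes gave no call. Over all 11351 genes tested, 5624 had a log2 fold change above 0 and 5727 below, and 0.044% were called. These shares serve for the later lists too. Of 22 tested genes of otic placode and identity outside the membership rule, 13 had a log2 fold change above 0 and 9 below, with a median of 0.10. Of 9 dorsal genes, 7 were above 0, with a median of 0.24, and 6 were higher in both replicates (23.3% of all genes tested were). *Bmp4*, a ligand of the future cristae, stood at 57.6, 82.2, 44.3 and 63.5 CPM (log2 fold change 0.52, SE 0.15, adjusted p = 0.502 by edgeR). *Tbx3*, a T-box repressor related to *Tbx2* and a member of the identity list, stood at 25.9, 50.7, 53.3 and 70.3 CPM (0.63, SE 0.17, adjusted p = 0.502 by edgeR). Both genes had the same sign in both replicates but did not pass the threshold. Of 8 ventral and posterior genes 5 were above 0. *Eya1*, a transcriptional coactivator needed for the ear, had a log2 fold change of -0.01 (SE 0.10).

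Among 14 tested genes of neuroblasts, 9 had a log2 fold change above 0, 6 of them in both replicates (23.3% of all genes tested were higher in both), and none was called. *Neurod1* stood at 7.71, 49.6, 28.9 and 48.4 CPM from 17, 134, 94 and 228 UMIs in 3, 6, 8 and 19 cells, higher in cKO in both replicates (log2 fold change 1.39, SE 0.28, adjusted p = 0.140 by edgeR). It passed the threshold in 4 of 9 other settings, and without doublets its log2 fold change was 0.64. Leaving out 1 library, in fits across kits, gave 0.96 to 2.51. Single cells held 15 of the 17 UMIs of cHet Rep1 and 70 of the 134 of cKO Rep1, the latter a doublet by score. Without the top cell of each library *Neurod1* stood at 0.913, 24.1, 18.1 and 41.7 CPM. *Gadd45g*, a stress and neurogenic cofactor, stood at 9.07, 21.8, 10.2 and 20.2 CPM (1.11, SE 0.26, adjusted p = 0.275 by edgeR). *Insm1*, a zinc finger factor of neuronal progenitors and a member of the identity list, stood at 0.907, 13.0, 3.08 and 7.43 CPM (2.13, SE 0.50, adjusted p = 0.275 by edgeR). Its UMIs numbered 2, 35, 10 and 35, in 1, 4, 2 and 16 cells. The top cell of each library held 2, 19, 9 and 7 of them, so these levels rest on few cells. *Stmn2* and *Tubb3*, genes of later neurons, were higher in cKO of Rep1 and lower in cKO of Rep2. The summed CPM of 8 neuron markers, all 8 with UMIs in every library, was 50.8, 154, 197 and 139, higher in cKO of Rep1 and lower in cKO of Rep2, and its part in these values was not tested.

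Signalling lists were likewise without calls other than *Crabp1*. Of 16 tested genes of the FGF pathway, 13 had a log2 fold change below 0, 8 of them in both replicates, against 23.8% of all genes tested, and the median was -0.15. *Etv5*, a transcriptional target of FGF signalling, stood at 31.3, 17.8, 41.6 and 33.1 CPM (-0.51, SE 0.19, adjusted p = 0.999 by edgeR). *Fgf10*, a ligand made by the neurosensory wall, stood at 79.4, 53.3, 110 and 120 CPM, and *Fgfr2*, its receptor, at 121, 118, 106 and 117 CPM. *Fgf10* was lower in cKO of Rep1 and higher in cKO of Rep2.

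Of 27 tested Wnt genes outside the membership rule 17 were below 0, of 16 Notch genes 9, of 20 BMP genes 9 and of 11 hedgehog genes 8, with medians of -0.06, -0.04, 0.06 and -0.13. Of all 11351 genes tested, 5727 were below 0. *Gas1*, a coreceptor of hedgehog ligands chosen here after its values were seen, stood at 248, 364, 270 and 355 CPM, and both cKO libraries lay above both cHet libraries, as was true of 5.06% of the genes tested (0.48, SE 0.10, adjusted p = 0.140 by edgeR). Of 22 tested genes of syndromes with inner ear malformation outside the membership rule, 12 were above 0 and none was called. Of 30 S-phase genes 16 were above 0 and 14 below, with a median of 0.00868, and of 30 G2/M genes 8 were above and 22 below, with a median of -0.04, and none was called. The median of 27 tested orthologs of the human 22q11 region was 0.05.

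The genotype effect in otic cells was set against that in the 1091 ectoderm and 476 endoderm cells of the same libraries through the type by genotype term. Against ectoderm, 46 of 12748 genes (0.361%) differed at an adjusted p under 0.05, with 28 below 0 (0.22%) and 18 above (0.141%), and 623 (4.89%) had an unadjusted p under 0.05. Against endoderm, 36 of 12099 genes (0.298%) differed, with 29 below 0 (0.24%) and 7 above (0.0579%), and 486 (4.02%) had an unadjusted p under 0.05. *Mest*, an imprinted gene of a hydrolase-like protein, gave one of the clearer differences beside *Crabp1*, because it was found in at least 97.1% of the otic cells of each library. It stood at 494, 381, 1264 and 1032 CPM in otic cells and at 380, 390, 911 and 1036 CPM in ectoderm. *Mest* was thus lower in cKO in otic cells in both replicates and above cHet in ectoderm in both, and the difference was -0.47 (SE 0.06, adjusted p = 2.43e-06 by edgeR). In otic cells alone *Mest* was not called (-0.32, SE 0.08, adjusted p = 0.408 by edgeR).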

How the data were processed

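The authors mapped 3′ reads with Cell Ranger and deposited UMI counts per gene and barcode, without scaling. The file headers name version 7.0.1 for Rep1 and 8.0.1 for Rep2, and the submitters' processing notes name Cell Ranger 8.0.1 and mm10. Matrices list 32285 genes, and 38 symbols occur more than once. Positions come from GENCODE release M21 (GRCm38), which held 32158 of the identifiers, and promoters from RefSeq.

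Counts were summed per library over otic cells, since cells are not replicates, and tested with edgeR 4.0.16 (filterByExpr, TMM, glmQLFit) in R 4.3.3. The replicate was a block because each replicate had its own kit. Deviations of same-numbered libraries from the genotype means correlated at 0.695. The type by genotype fits had terms for library, type and type by replicate. Those that left out a library had no type by replicate term, so they compared libraries across kits. Fold changes within a replicate used log2 CPM with a prior count of 2. Fits were also run on simulated sums with known changes and a dispersion shared by all genes. The simulated sums held no single cells that dominate a gene, so they do not bear on calls that rest on a few cells.

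Scrublet (scanpy 1.11.5) marked only 2 barcodes in each Rep1 library at its automatic threshold, so doublets were called by score at the rate expected for the kits and left out only as an alternative. Thinning drew 5000 UMIs per cell (seed 0), which every otic cell held. Endothelial cells had UMIs of *Cdh5* and *Pecam1* and none of *Epcam*.

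Named genes were the called genes with the same sign in both replicates (up to 12 each way), list members past the threshold, *Kmt2d*, *Tbx1*, the label markers and the rule's otic genes, 15 genes by level and 6 per interaction. Other list members were named after their values were seen. Members, lists and tests were chosen with earlier results of these data known. Nothing in the labels says that the pools came from separate litters, so p-values refer to these pools only. With 4 libraries and a block, edgeR estimated the spread of each gene with help from all genes tested. A p-value therefore says little about that gene's own spread between pools. Each SE is the absolute log2 fold change divided by the square root of the test's F statistic. Alternatives were DESeq2 1.42.0, RLE size factors, no filter, no block, thinning and other choices of cells. Results of some list members are not reported here.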

Additional observations from a re-analysis of the deposited data

Results flagged for a closer look

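In 12 genes the genotype effect differed between the otic cells and another epithelium by the type by genotype test of edgeR (adjusted p under 0.05). They are the 6 with the smallest p against each epithelium, and values are differences of log2 fold changes, otic minus the other. Against ectoderm, *Crabp1* gave -0.71 and *Mest* -0.47, both with UMIs in most otic cells. *Neurod1* gave 1.60, with 134 UMIs in 6 cells of cKO Rep1 and 228 UMIs in 19 cells of cKO Rep2. *Myl4* gave 5.203 and *Tnnt2* 7.09, and 1 cell of cKO Rep1 held 81 of 86 and 78 of 78 of their otic UMIs there. *Tfap2b* gave -5.73, and 1 cell of cHet Rep1 held 27 of the 29 UMIs of that library.

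Against endoderm, *Nefm* gave -3.09, and 1 cell each held 81 of 86 UMIs in cKO Rep1 and 228 of 289 in cHet Rep2. *Tubb3* gave -3.72, with 5 and 64 UMIs in the endoderm of cHet Rep2 and cKO Rep2. *Dcc*, a netrin receptor, gave -1.69, with 88.0, 121, 256 and 227 CPM in otic cells and 99.5, 385, 5.92 and 23.9 CPM in endoderm. *Ebf2* gave -1.98, *Col25a1* -1.60 and *Gm5127* -4.00. For all 6 genes the endoderm was higher in cKO in both replicates. In Rep1 this rests on 2 (cHet) and 4 (cKO) endoderm UMIs for *Nefm* and on 1 and 2 for *Tubb3*.

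Over the 4 fits that each left out 1 library, the difference against ectoderm ran from -0.99 to -0.43 for *Crabp1*, -0.52 to -0.38 for *Mest*, 1.16 to 2.53 for *Neurod1*, 3.39 to 7.39 for *Myl4*, 3.34 to 8.91 for *Tnnt2* and -8.31 to -1.15 for *Tfap2b*. Against endoderm it ran from -3.30 to -0.11 for *Nefm*, -3.92 to -0.60 for *Tubb3*, -4.71 to 1.05 for *Dcc*, -2.08 to -1.82 for *Ebf2*, -2.46 to -1.08 for *Col25a1* and -6.68 to -3.07 for *Gm5127*. These fits had no type by replicate term and compared libraries across kits, so they do not show what a single library contributed.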

How the results depend on the processing

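Under the alternatives, calls in otic cells (lower and higher in cKO) changed from 3 and 2 to 0 and 0 with no replicate block (46 genes at an unadjusted p under 0.05), 0 and 0 with DESeq2 (42 genes), 22 and 23 with RLE size factors, 26 and 28 without a filter on low counts, 0 and 1 in thinned cells, 17 and 6 without doublets, 13 and 10 with at least 3 otic genes, and 6 and 18 without cells marked by other-type lists. Chosen after seeing the data, leaving out such cells without use of the crest list gave 27 and 17, and leaving out cells with neuron markers gave 0 and 1. Fits that left out each library in turn had no block and took the lone library to vary like the other group. They compared libraries across kits, so their numbers of calls are not given. Over those fits the log2 fold change of *Gm5127* ran from -6.47 to 0.23, the latter without cHet replicate 1. Against ectoderm the 46 calls became 5 in thinned cells, 0 with no replicate block (362 genes at an unadjusted p under 0.05), 73 without a filter and 6 to 57 without each library. Against endoderm the 36 became 0 in thinned cells (309 genes), 0 with no replicate block (295 genes) and 1 to 76 without each library. With at least 3 otic genes the otic share was 0.818%, 0.916%, 0.729% and 1.02%. With at least 2 otic genes but epithelial cells as the total, it was 15.6%, 30.3%, 21.1% and 19.9%. The cause of these changes was not tested. The otic sums of 2204767 to 4710075 UMIs limit what could be seen of genes at a few CPM.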
